A study of Mus musculus with 12 samples.

Results

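Total RNA of mouse livers was compared between 3 libraries labelled Mcl1 Sting1 DKO (double knockout, Mcl1Δhep Sting1-/-) and 3 libraries labelled Mcl1 KO (Mcl1Δhep), 6 of the 12 libraries of the series. Every gene was read in both directions, and 15070 of 40551 genes had enough counts to be tested. In both groups, Cre recombinase driven by the albumin promoter deleted floxed Mcl1 in hepatocytes. The double knockout mice additionally lacked Sting1 in all cells, from a cross with Sting1-/- mice, so the loss was not restricted to a cell type. The other 6 libraries came from 3 WT livers and 3 Sting1-/- livers with intact Mcl1, and they were used for the estimate of spread and for reference levels. The study analyzed Mcl1Δhep mice at 2 and 12 months and used both sexes, and its text places the transcriptome of Mcl1Δhep livers at 2 months without giving an age for the sequenced double knockout livers. The comparison addresses whether blocking STING alters the immune response of livers that lose hepatocytes continuously. The labels number the 3 samples of each genotype, and the study counts the samples behind its macrophage gene plots of these livers as biological replicates. Litters and days of sampling are not given in the sources used here, so p-values measure the spread between these samples.

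MCL1 is an antiapoptotic protein of the BCL-2 family, and hepatocytes without it die and are replaced by dividing neighbors, which makes the Mcl1Δhep mouse a model of chronic liver injury. cGAS binds DNA in the cytosol and makes a cyclic dinucleotide that activates STING, an adaptor in the endoplasmic reticulum. STING recruits the kinase TBK1, which phosphorylates IRF3, and interferon and NF-κB target genes follow. In the liver, STING is known mainly from macrophages and other nonparenchymal cells. Resident macrophages of the liver are Kupffer cells, whereas blood monocytes enter injured tissue and can become lipid-associated macrophages marked by Trem2, Gpnmb, and Cd9.

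The libraries held 28826367 to 45266387 counts on genes, and several stood apart before any genotype was compared. Mcl1Δhep replicates 2 and 3 carried more counts on short genes and fewer on long genes than the other libraries. Among 13672 protein-coding genes in 8 classes of exon length, the shortest class (99 to 2680 bases) stood at 0.34 and 0.31 in these libraries, as the median log2 CPM (counts per 1000000 of the library, scaled by TMM) minus the 12-library mean of each gene. The longest class (11873 to 123193 bases) stood at −0.26 and −0.32. Mcl1Δhep replicate 1 stood at −0.07 and 0.08 in the same classes, and the 3 libraries labelled DKO had −0.07 to −0.05 and 0.06 to 0.09. Small structured RNAs took 2.57% and 1.43% of the counts of Mcl1Δhep replicates 2 and 3, and 0.179 to 0.926% of every other library. Mcl1Δhep replicate 3 also held skeletal muscle transcripts (0.290% of its counts, at most 0.00399% elsewhere) and pancreas and gut transcripts (1.26%, at most 0.0103% elsewhere). Mcl1Δhep replicate 1 had the lowest quality weight in limma (0.222, where 1 is average). The library DKO replicate 1 expressed Y-linked genes at 141 CPM in sum, and the other 5 compared libraries had at most 0.187. Hepatocyte markers (Alb, Ttr, and Apoa1) and the Kupffer cell marker Clec4f were high in all 6 libraries, whereas Ly6g of neutrophils and Cd3e of T cells stayed at or below 0.246 CPM.

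**Figure D1:**
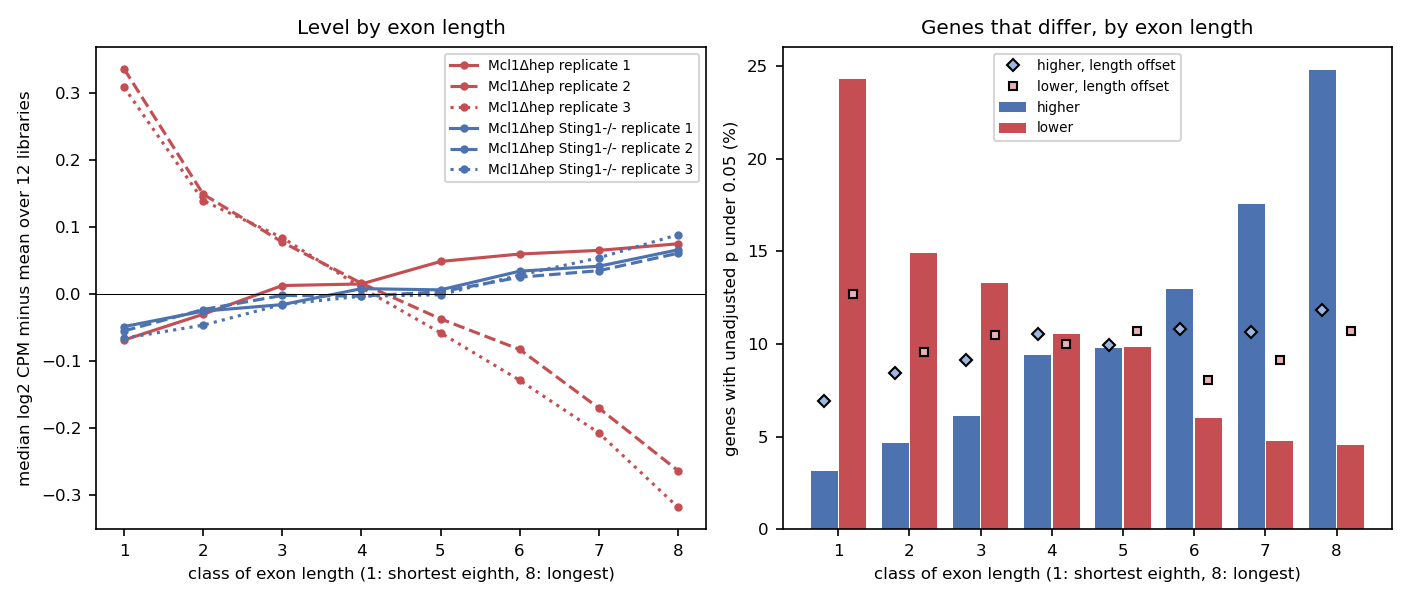
Left, median log2 CPM minus the 12-library mean against class of exon length (1, shortest; 8, longest) for each of the 6 libraries; Mcl1Δhep replicates 2 and 3 run from 0.34 and 0.31 down to −0.26 and −0.32, while the other 4 lines stay between −0.07 and 0.09. Right, the percentage of genes in each class with an unadjusted edgeR p under 0.05 (bars; symbols after an exon-length offset), where the lower share drops from 24.3 to 4.56% and the higher share climbs from 3.16 to 24.8% with length, and both lie between 6.90 and 12.7% after the offset.

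The median log2 fold change (double knockout over Mcl1Δhep) therefore ran from −0.27 in the shortest class to 0.23 in the longest. An offset that removes the smooth trend of each library with exon length left class medians between −0.07 and 0.01. Its values are given for part of the results, and a result printed without one can also move with the offset. This offset was chosen after the data were seen. The cause of the length pattern was not tested.

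By edgeR's quasi-likelihood test, 0 of 15070 genes (0%) passed an adjusted p of 0.05, and the lowest adjusted p was 0.116. At an unadjusted p under 0.05, 1589 genes were higher (10.5% of all tested) and 1595 lower (10.6%) in the double knockout. With the length offset, these were 1448 (9.61%) and 1453 (9.64%). DESeq2, the second test, called 337 genes higher (2.38% of its 14146) and 334 lower (2.36%) at an adjusted p under 0.05. All 3 libraries labelled DKO lay above all 3 Mcl1Δhep libraries for 1352 genes (8.97%) and below them for 1398 (9.28%). The count depended on single libraries. Without Mcl1Δhep replicate 1, which leaves only the 2 Mcl1Δhep libraries with the length pattern, edgeR called 1746 genes higher (11.4% of 15357) and 1438 lower (9.36%). Without Mcl1Δhep replicates 2 and 3 in turn, edgeR called 2 and 6 genes, and DESeq2 called 88 and 554, against 3690 without replicate 1. Of the 671 genes called by DESeq2, 620 were also called by edgeR without Mcl1Δhep replicate 1, each in the same direction. Both runs use the same remaining libraries, so this sharing is not independent support for the calls. In what follows, counts of list members are given at the unadjusted edgeR p under 0.05 and at the DESeq2 adjusted p under 0.05, and the first is read against 10.5% and 10.6%. Counts of members without 1 library are also at an unadjusted p under 0.05, and over all genes such a p was found for 3184 with every library, 1567 without Mcl1Δhep replicate 2, 2668 without Mcl1Δhep replicate 3, and 2934 without the library DKO replicate 1. Over all tested genes, the median log2 fold change was −0.0016.

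**Figure D2:**
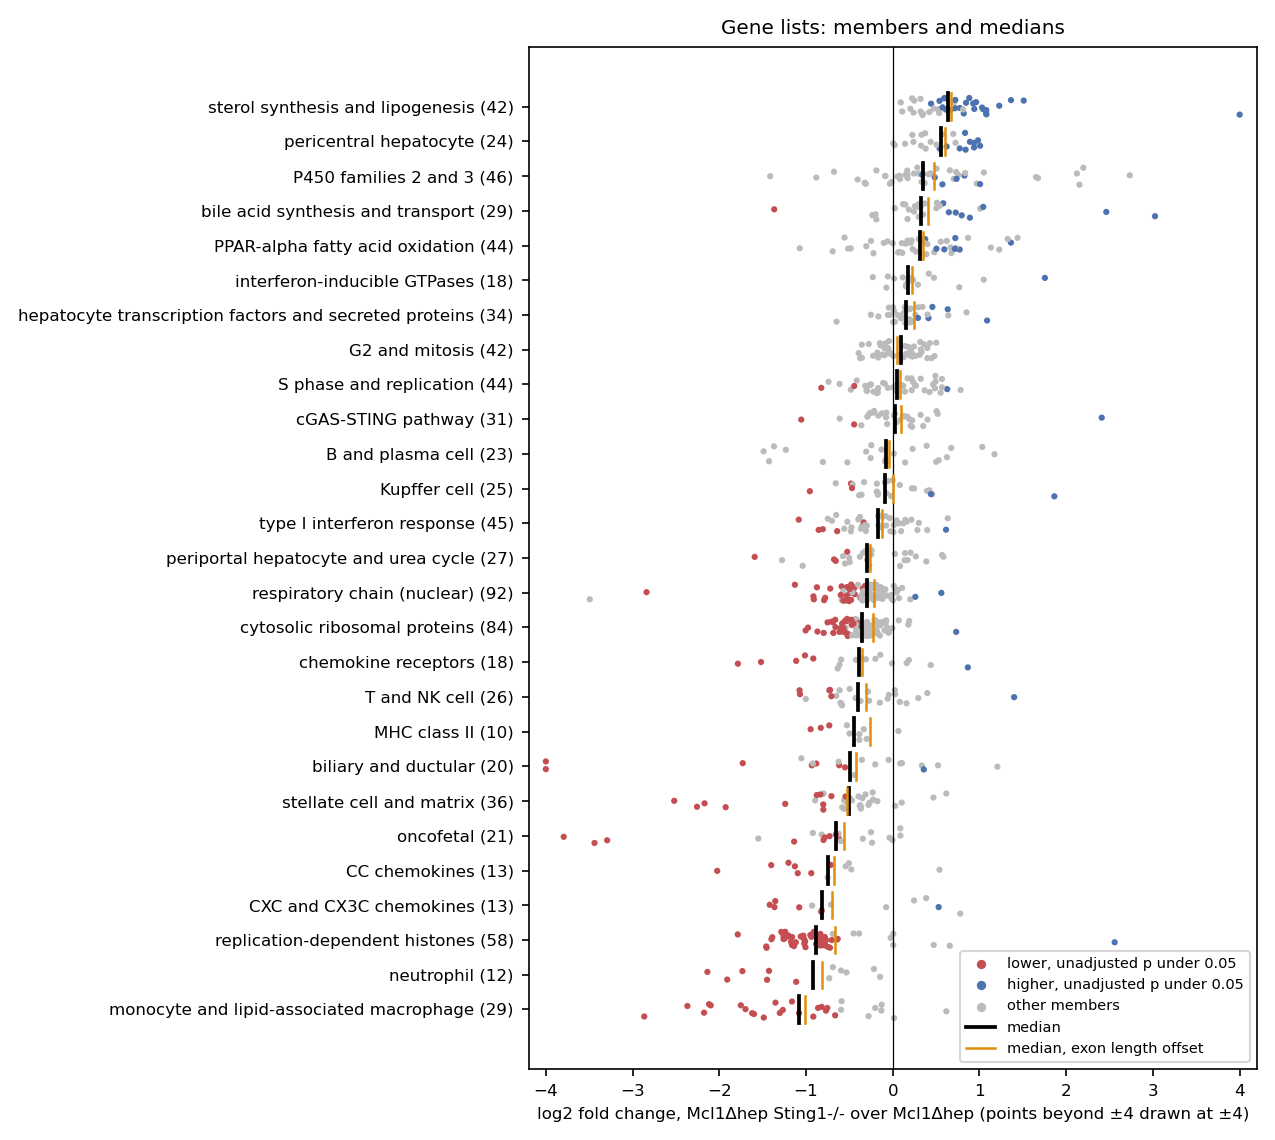
Log2 fold change of each tested member (points, number of members in parentheses; blue higher and red lower at an unadjusted edgeR p under 0.05; points beyond ±4 drawn at ±4) in 27 gene lists, ordered by their median (black bar; orange bar, median with the exon-length offset). Sterol synthesis and lipogenesis stands at the top with a median of 0.64, and monocyte and lipid-associated macrophage genes stand at the bottom with −1.08.

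Sting1 (ENSMUSG00000024349, GRCm39 chromosome 18, 35866732 to 35873607) had 4.59, 6.0, and 3.67 CPM (from here on per 1000000 counts on tested genes) in the 3 Mcl1Δhep livers, in replicate order here and throughout. The double knockout livers had 1.90, 2.53, and 2.33. The groups did not overlap, with a log2 fold change of −1.06 (SE 0.29, edgeR adjusted p = 0.12, DESeq2 adjusted p = 0.0207). The WT livers had 2.36 ± 0.219 CPM (mean ± SD, n = 3), so the double knockout libraries kept the level of WT livers, and these gene counts do not by themselves show a null allele. Hence the libraries are called by their label. Mcl1 (ENSMUSG00000038612, chromosome 3, 95566026 to 95570487) had 27.9, 34.0, and 25 CPM in Mcl1Δhep livers and 18.1, 22.9, and 26.0 in double knockout livers, where WT livers averaged 98.6. The deletion of Mcl1 was thus visible in all 6 libraries, and the compared groups overlapped. Cgas (ENSMUSG00000032344, chromosome 9, 78337802 to 78350535), the DNA sensor upstream of STING, had 1.03, 0.765, and 0.664 CPM against 0.401, 0.731, and 0.848, and its groups overlapped too. Among 31 tested genes of the cGAS-STING pathway, the median log2 fold change was 0.03, with 1 higher and 2 lower at an unadjusted p under 0.05. The kinase Tbk1 had a log2 fold change of 0.12 (SE 0.10), and the transcription factor Irf3 had 0.08 (SE 0.11). The exceptions were Sting1 itself, the related kinase Ikbke (−0.45), and Ifi208, a member of the DNA-binding interferon-inducible p200 family, which had 0.186, 0.520, and 0.0632 CPM in Mcl1Δhep livers and 1.47, 2.39, and 0.876 in double knockout livers. Ifi208 also averaged 1.27 CPM in Sting1-/- livers and 0.139 in WT livers, and reads of this family of near-identical paralogs may be assigned imprecisely.

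**Figure D3:**
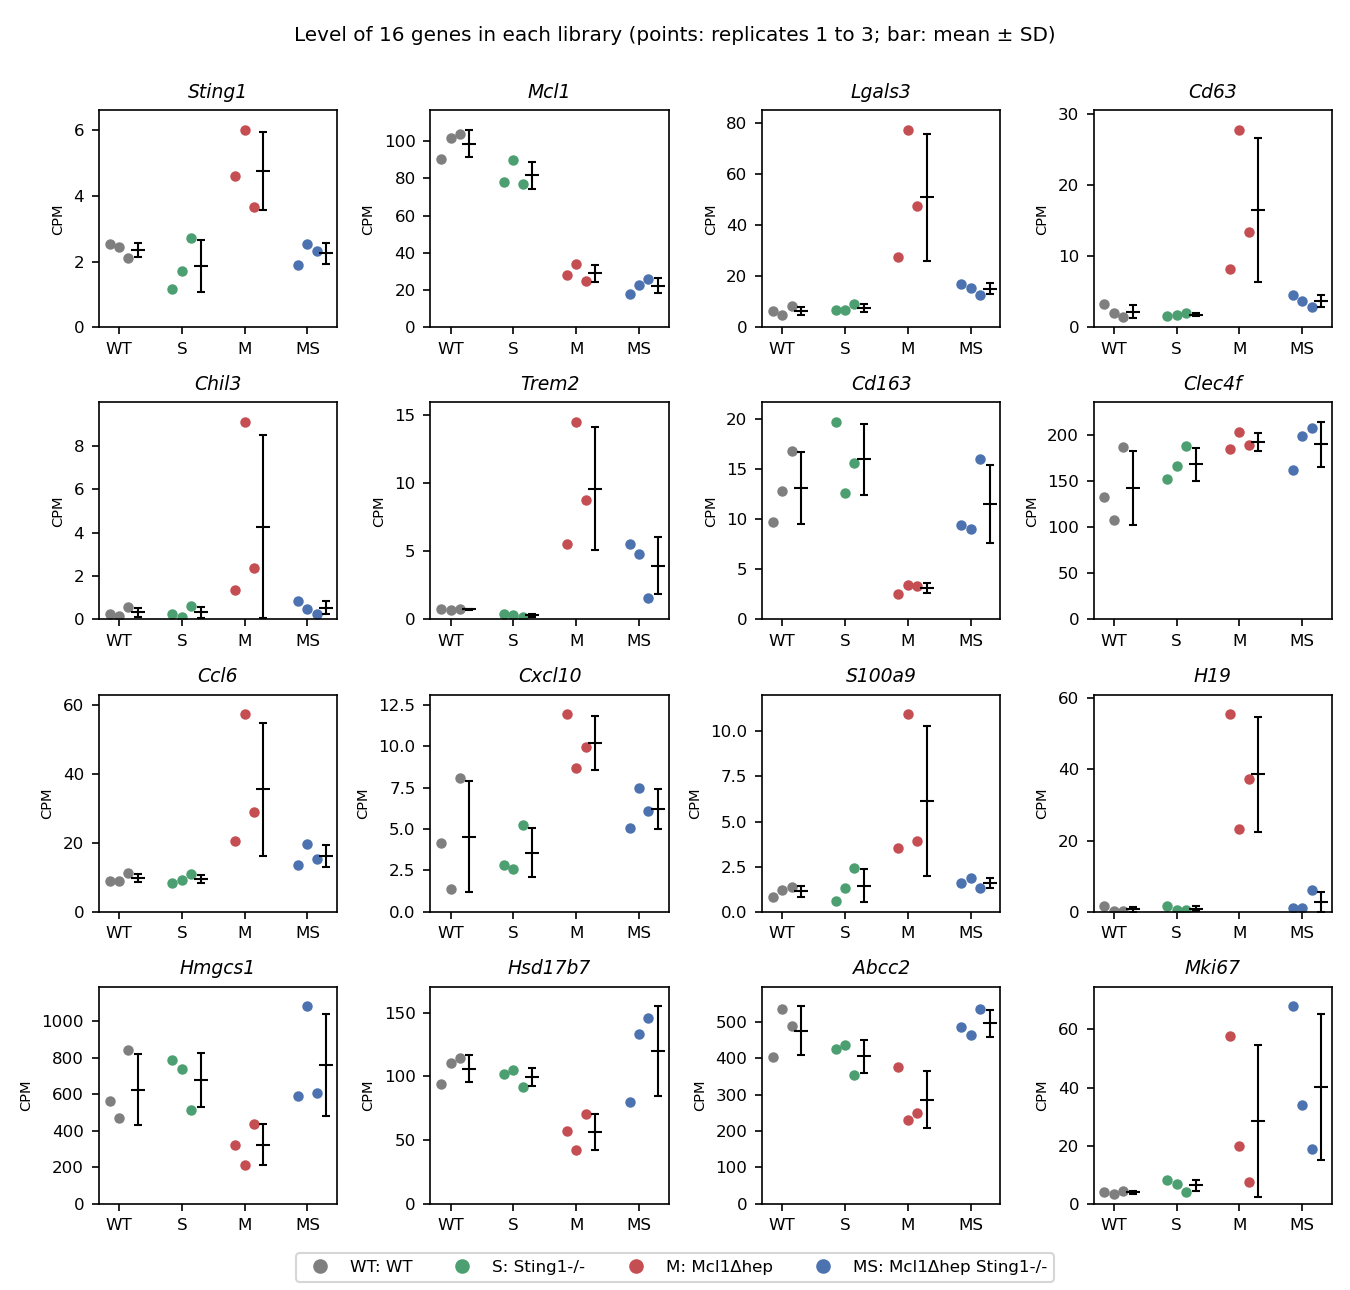
CPM of 16 genes in each of the 12 libraries (points, replicates 1 to 3; bar, mean ± SD; WT, wild type; S, Sting1-/-; M, Mcl1Δhep; MS, Mcl1Δhep Sting1-/-). In Lgals3, Cd63, Chil3, Ccl6, S100a9, and H19, every M point lies above every MS point; in Cd163, Hmgcs1, Hsd17b7, and Abcc2, every M point lies below; in Mcl1, Clec4f, and Mki67, the groups overlap.

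The genes of monocytes and lipid-associated macrophages were lower in double knockout livers as a group. Of its 29 genes, all tested, 27 had a negative value, and the median log2 fold change was −1.08. At an unadjusted p under 0.05, 21 were lower and 0 higher, DESeq2 called 8 lower, and for 17 genes the groups did not overlap. The median was −1.01 with the length offset (18 lower), −1.14 without Mcl1Δhep replicate 1, and −0.76 without Mcl1Δhep replicate 2 (10 lower), the library in which 21 of these genes were highest. Bulk counts cannot tell fewer cells of a type from less RNA per cell, here or in the lists that follow.

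Galectin-3, encoded by Lgals3 (ENSMUSG00000050335, chromosome 14, 47605208 to 47623624), is a secreted lectin of activated macrophages. Lgals3 had 27.6, 77.3, and 47.6 CPM in Mcl1Δhep livers and 17.1, 15.4, and 12.8 in the double knockout. The 3 double knockout libraries were close together and all below the lowest Mcl1Δhep library, a log2 fold change of −1.75 (SE 0.32, edgeR adjusted p = 0.116, DESeq2 adjusted p = 7.99e-05). WT livers averaged 6.49 CPM, so the double knockout lay between WT and Mcl1Δhep. Cd63, a tetraspanin of late endosomes, had 8.28, 27.8, and 13.4 CPM against 4.61, 3.73, and 2.93 (−2.12, SE 0.41, DESeq2 adjusted p = 0.000118). Cd14, the coreceptor for bacterial lipopolysaccharide, had 9.99, 12.1, and 6.74 CPM against 3.24, 3.02, and 3.15 (−1.60, SE 0.35, DESeq2 adjusted p = 0.00179). In both genes, the groups were separate, and the 3 double knockout values for Cd14 also lay below the WT mean of 5.03. The groups did not overlap in S100a4 and Chil3 either. S100a4, a calcium-binding protein of motile cells, had 1.66, 7.62, and 2.85 CPM against 0.702, 0.902, and 0.930 (−2.18, SE 0.50, DESeq2 adjusted p = 0.00313). Chil3, a lectin of alternatively activated macrophages, had 1.34, 9.09, and 2.37 CPM against 0.869, 0.487, and 0.274 (−2.87, SE 0.76, DESeq2 adjusted p = 0.00514, and −1.69 without Mcl1Δhep replicate 2).

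The markers named for their role also had negative values, but at lower precision, and not all of them separated the groups. Trem2, the lipid receptor of lipid-associated macrophages, had 5.57, 14.5, and 8.73 CPM in Mcl1Δhep livers and 5.51, 4.78, and 1.56 in double knockout livers. The lowest Mcl1Δhep library and the highest double knockout library thus nearly met (−1.27, SE 0.43, DESeq2 adjusted p = 0.0572). Gpnmb, a lysosomal glycoprotein of the same cells, had 19.6, 40.0, and 17.2 CPM against 12.9, 7.16, and 3.56 (−1.70, SE 0.57, DESeq2 adjusted p = 0.121). In double knockout livers, Trem2 and Gpnmb remained above their WT means of 0.756 and 0.704 CPM in every library. Ccr2, the receptor by which monocytes leave the bone marrow, had 5.92, 14.1, and 5.79 CPM against 4.51, 5.48, and 3.58 (−0.92, SE 0.35). Ly6c2, a surface protein of inflammatory monocytes with close paralogs, had 2.61, 3.09, and 1.93 CPM against 1.34, 0.902, and 1.09 (−1.16, SE 0.37). Neither passed DESeq2 (adjusted p = 0.102 for Ccr2 and 0.0534 for Ly6c2). Spp1, the osteopontin gene, which hepatic duct cells also express, overlapped between the groups (−0.20, SE 0.21), as did Cd9 (−0.76, SE 0.34).

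Kupffer cell genes were mixed, and the sign of their median turned with the length offset. Of 25 genes, 17 had a negative and 8 a positive log2 fold change, and the median was −0.09 (0.01 with the length offset). At an unadjusted p under 0.05, 2 were higher and 3 lower, and 1 and 1 without Mcl1Δhep replicate 2. All double knockout libraries lay below all Mcl1Δhep libraries for 7 of the 25 genes and above them for 1. Over all tested genes, these shares were 9.28% and 8.97%. Clec4f, the C-type lectin that marks Kupffer cells, had 185, 204, and 190 CPM in Mcl1Δhep livers and 163, 200, and 208 in double knockout livers. The groups coincided, with a log2 fold change of −0.02 (SE 0.18). Adgre1, which encodes the F4/80 antigen, had 71.0, 56.4, and 54.4 CPM against 62.4, 64.6, and 65.3, and also overlapped (0.08, SE 0.19). Timd4, a receptor for phosphatidylserine on long-lived resident macrophages, had 5.23, 9.06, and 8.06 CPM against 6.15, 10.3, and 12.9 (0.39, SE 0.30).

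The exception was Cd163 (ENSMUSG00000008845, chromosome 6, 124281606 to 124307560), the scavenger receptor for hemoglobin-haptoglobin complexes. It had 2.59, 3.40, and 3.38 CPM in Mcl1Δhep livers and 9.42, 9.04, and 16 in double knockout livers. Every double knockout library was above every Mcl1Δhep library, and the WT libraries had 9.74, 12.8, and 16.8, so replicates 1 and 2 of the double knockout were just under the lowest WT library and replicate 3 lay inside the WT range. The log2 fold change was 1.86 (SE 0.28, edgeR adjusted p = 0.116, DESeq2 adjusted p = 2.08e-06), and it was 1.89 with the length offset, 1.75 without Mcl1Δhep replicate 1, and 1.99 without the library DKO replicate 1. Vsig4, a complement receptor of the same cells, was higher by a smaller amount, with 54.1, 39.6, and 40.0 CPM against 52.5, 67.5, and 61.7, and its groups overlapped (0.44, SE 0.19). Hmox1, the heme oxygenase that degrades heme after its uptake, went the other way, with 103, 91.7, and 73.9 CPM against 53.4, 40.2, and 44.8 (−0.96, SE 0.21, DESeq2 adjusted p = 0.00448). Hbb-bs, a hemoglobin gene that tracks red blood cells, had 96.2, 480, and 411 CPM in Mcl1Δhep livers and 215, 126, and 121 in double knockout livers, and its part in these values was not tested.

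Neutrophil genes were lower in double knockout livers. Of 19 listed genes, 12 passed the filter on low counts, and each of them had a negative value (median log2 fold change −0.92, and −0.82 with the length offset). Of these, 6 had an unadjusted p under 0.05 (3 without Mcl1Δhep replicate 2), and DESeq2 called 2. S100a9, a subunit of calprotectin, had 3.54, 11, and 3.92 CPM in Mcl1Δhep livers and 1.6, 1.85, and 1.31 in double knockout livers (−1.91, SE 0.51, DESeq2 adjusted p = 0.00797). Its partner S100a8 had 2.36, 6.43, and 2.72 CPM against 1.2, 1.61, and 1.34 (−1.43, SE 0.46, DESeq2 adjusted p = 0.0431). Both were separate between groups and highest in Mcl1Δhep replicate 2. Lcn2, an iron-chelating protein that hepatocytes also secrete, had 77.4 CPM in that library against 11.1 and 17.0 in the other Mcl1Δhep livers and 6.65 to 9.47 in the double knockout.

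Chemokine ligands followed the monocyte genes. Among 13 tested CC chemokines, 12 had a negative log2 fold change, the median was −0.75 (−0.68 with the length offset), 8 were lower and 0 higher at an unadjusted p under 0.05 (5 lower and 1 higher with the offset), and DESeq2 called 2. Without Mcl1Δhep replicate 2, the median was −0.60 and 4 were lower. Ccl6, a macrophage and neutrophil chemokine, had 20.4, 57.2, and 28.8 CPM in Mcl1Δhep livers and 13.5, 19.7, and 15.4 in double knockout livers (−1.13, SE 0.31, DESeq2 adjusted p = 0.0176). The lowest Mcl1Δhep library was just above the highest double knockout library. Ccl2, the main ligand of Ccr2, had 4.80, 3.92, and 3.04 CPM against 2.0, 2.0, and 1.42 (−1.10, SE 0.45, DESeq2 adjusted p = 0.103), and Ccl7, another of its ligands, had 1.18, 0.734, and 1.01 against 0.401, 0.341, and 0.274 (−1.40, SE 0.39, DESeq2 adjusted p = 0.0631). In these 2 genes, Mcl1Δhep replicate 1 was the highest library, unlike in the macrophage markers. Ccl21a, a lymphatic chemokine with near-identical copies, had a log2 fold change of −2.02 (SE 0.62, DESeq2 adjusted p = 0.0207).

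Among 13 tested CXC and CX3C chemokines, the median was −0.82, 6 were lower and 1 higher at an unadjusted p under 0.05, and DESeq2 called 1. Without Mcl1Δhep replicate 2, the median was −0.57, with 2 lower and 0 higher. The gene called by DESeq2 was Cxcl16, a membrane-bound ligand for Cxcr6 on lymphocytes, with 16, 29.1, and 21.2 CPM in Mcl1Δhep livers and 12.9, 12.7, and 11.9 in double knockout livers (−0.82, SE 0.23, DESeq2 adjusted p = 0.0273). Cxcl12, a stromal chemokine, was the higher one, with 139, 135, and 169 CPM against 152, 183, and 304 and overlapping groups (0.53, SE 0.23). Among the interferon-γ targets, Cxcl10 had 11.9, 8.69, and 9.96 CPM against 5.04, 7.48, and 6.07 and did not overlap (−0.71, SE 0.47, DESeq2 adjusted p = 0.341), and Cxcl9 overlapped (−0.08, SE 0.39). Of 18 chemokine receptors, 5 were lower and 1 higher (median −0.39; 3 and 0 without Mcl1Δhep replicate 2), and DESeq2 called 2 lower. Ccr1, a receptor of monocytes and neutrophils, had 0.869, 2.51, and 1.64 CPM against 0.601, 0.463, and 0.274 (−1.79, SE 0.49, DESeq2 adjusted p = 0.0234). Cxcr4, the receptor of Cxcl12, had 3.21, 9.30, and 3.73 CPM against 1.34, 1.44, and 2.76 (−1.52, SE 0.51, DESeq2 adjusted p = 0.0477).

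Antigen presentation and lymphocyte genes moved less. The median of 10 MHC class II genes was −0.44 (−0.27 with the length offset), with 3 lower at an unadjusted p under 0.05 (1 with the offset, 0 without Mcl1Δhep replicate 2 or without the library DKO replicate 1) and 0 called by DESeq2. H2-Ab1, a chain of the I-A molecule, had 65.6, 136, and 89.7 CPM in Mcl1Δhep livers and 45.4, 38, and 67.7 in double knockout livers, and the groups overlapped (−0.95, SE 0.35). Among 26 T and NK cell genes, the median was −0.40, with 5 lower (1 with the offset) and 1 higher. It was −0.19 with 1 lower without Mcl1Δhep replicate 2 and −0.24 with 2 lower without the library DKO replicate 1. Zap70, the kinase of the T cell receptor, had 20.8, 39.1, and 38.8 CPM against 15.1, 18.3, and 13.3 (−1.07, SE 0.23, DESeq2 adjusted p = 0.00403), although Cd3e, the receptor's own subunit, stayed near 0 in these libraries. Icos, a costimulatory receptor, was the higher gene, with 0.786, 0.428, and 0.285 CPM against 1.24, 1.41, and 1.67 (1.40, SE 0.39, DESeq2 adjusted p = 0.0245). The 23 B and plasma cell genes had a median of −0.08, and 0 of them had an unadjusted p under 0.05 in edgeR or a DESeq2 call.

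Interferon response genes did not follow the chemokines. The median of 45 genes of the type I interferon response was −0.16 (−0.12 with the length offset), 5 were lower and 1 higher at an unadjusted p under 0.05 (3 and 0 without Mcl1Δhep replicate 2), and DESeq2 called 0. Ifitm1, an antiviral membrane protein, had 7.45, 10.9, and 9.42 CPM in Mcl1Δhep livers and 4.98, 6.34, and 6.43 in double knockout livers (−0.64, SE 0.19, DESeq2 adjusted p = 0.0534). Herc6, a ligase for ISG15, was higher without overlap, with 18.7, 13.7, and 16.9 CPM against 23.4, 22.5, and 29.5 (0.61, SE 0.22, DESeq2 adjusted p = 0.101). Ifit1, an inhibitor of viral translation, overlapped between the groups (−0.35, SE 0.39). The 18 interferon-inducible GTPases had a median of 0.18, with 1 higher (Gbp2b) and 0 lower.

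**Figure D4:**
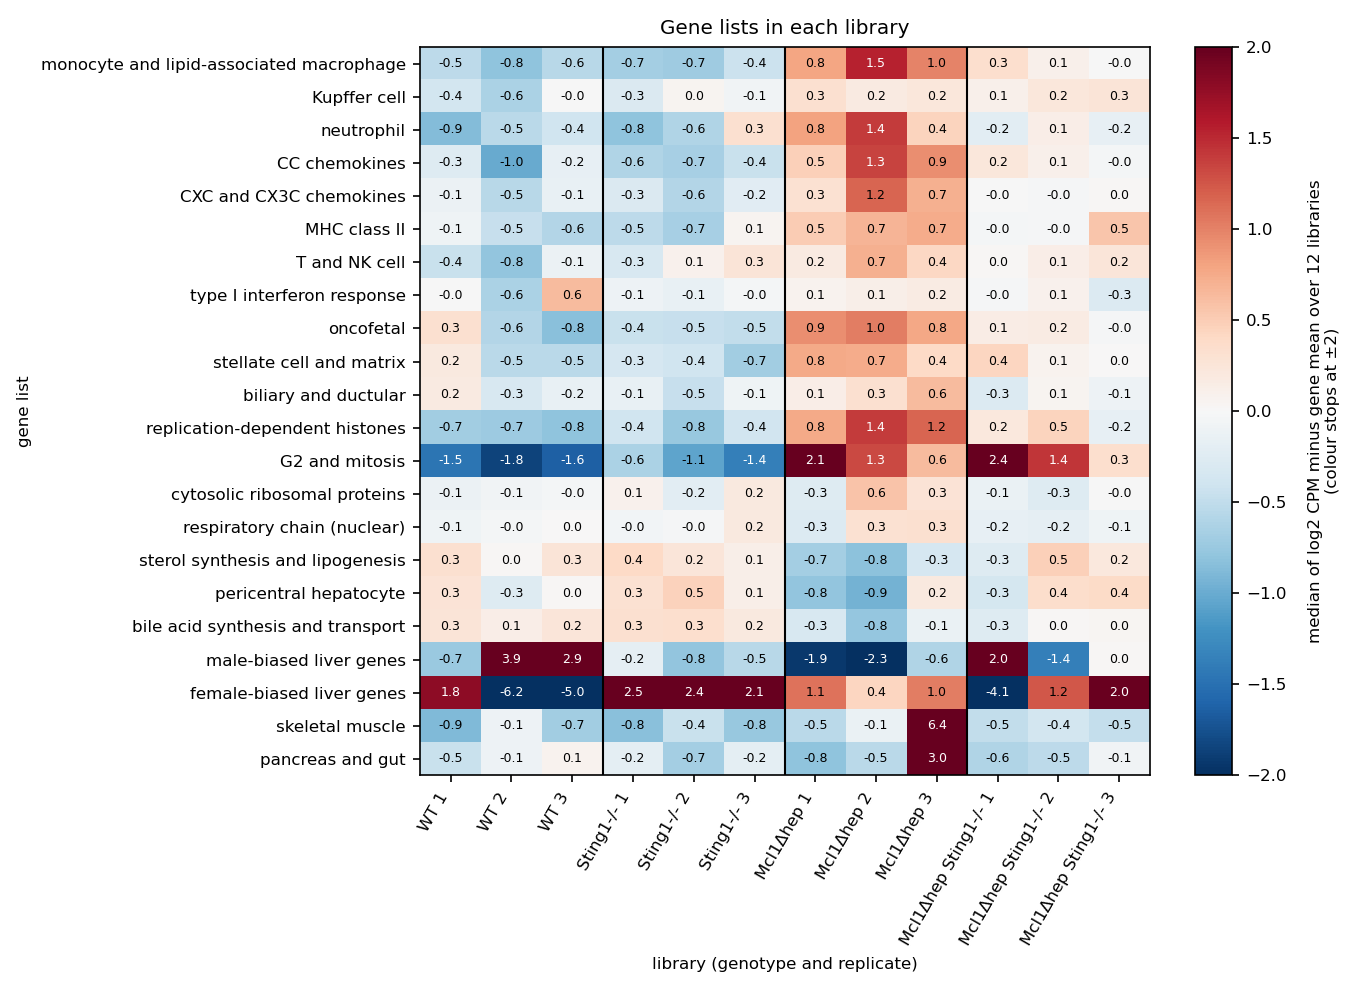
Median over the members of 22 gene lists of log2 CPM minus each gene's 12-library mean (colour and printed value), by library. The monocyte and lipid-associated macrophage list reads 0.79, 1.54, and 1.0 in Mcl1Δhep livers and 0.34, 0.10, and −0.01 in the double knockout, while the skeletal muscle list reads 6.41 in Mcl1Δhep replicate 3 and at most −0.10 in the other libraries.

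Oncofetal genes, which are expressed in fetal liver and again in liver tumors, were lower in double knockout livers. Of 21 tested genes, 19 had a negative log2 fold change (median −0.66, and −0.57 with the length offset), 9 were lower at an unadjusted p under 0.05, and DESeq2 called 3. H19 (ENSMUSG00000000031, chromosome 7, 142129262 to 142133957), an imprinted long noncoding RNA of fetal liver, had 55.5, 23.1, and 37.3 CPM in Mcl1Δhep livers and 0.969, 1.12, and 6.10 in double knockout livers. The highest double knockout library was below the lowest Mcl1Δhep library, and WT livers averaged 0.612 (log2 fold change −3.79, SE 0.93, edgeR adjusted p = 0.12, DESeq2 adjusted p = 0.0193). Mir675 lies inside H19 (chromosome 7, 142130801 to 142130884) and had 5.11, 2.14, and 3.19 CPM against 0.267, 0.0487, and 0.520. The handling of overlapping genes is not given in the sources used here, so reads of Mir675 and H19 cannot be told apart. Ly6d (ENSMUSG00000034634, chromosome 15, 74633902 to 74635597), a surface protein of immature lymphoid and epithelial cells, had 28.7, 177, and 43.2 CPM against 7.55, 8.41, and 6.87 (−3.44, SE 0.56, DESeq2 adjusted p = 2.77e-05). Its 3 double knockout values remained above the WT mean of 0.931. Afp, the fetal counterpart of albumin, was low in both groups and overlapped (−0.73, SE 0.34), and Gpc3, a tumor-associated proteoglycan, overlapped as well (−0.24, SE 0.41).

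Biliary and ductular genes were mixed. The median of 20 genes was −0.50 (−0.42 with the length offset, −0.27 without Mcl1Δhep replicate 3), with 7 lower and 1 (Slc4a2) higher at an unadjusted p under 0.05 (4 and 0 without Mcl1Δhep replicate 2) and 2 called lower by DESeq2. Dmbt1, a mucosal glycoprotein also made by ductular cells, had 18.4, 29.6, and 243 CPM in Mcl1Δhep livers and 0.200, 0.755, and 0 in double knockout livers. The library with muscle and pancreas transcripts set the mean, and the log2 fold change of −7.98 (DESeq2 adjusted p = 0.00812) was −5.97 without it. Muc1, a mucin of ducts, had 0.786, 1.01, and 1.58 CPM against 0.234, 0.195, and 0.465 (−1.73, SE 0.39, DESeq2 adjusted p = 0.00951). Krt19, a keratin of cholangiocytes, had 1.61, 2.75, and 2.69 CPM against 1.24, 1.24, and 1.26 without overlap (−0.88, SE 0.32, DESeq2 adjusted p = 0.101). Epcam and Sox9, markers of the ductular reaction, overlapped between the groups (−0.62, SE 0.37, and 0.09, SE 0.26).

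Genes of stellate cells and matrix leaned the same way. Of 36 genes, 32 had a negative log2 fold change (median −0.50, and −0.52 with the length offset), 11 were lower and 0 higher at an unadjusted p under 0.05, and DESeq2 called 5. Without Mcl1Δhep replicate 2, 6 were lower, and without the library DKO replicate 1, 19 were lower and 1 higher. Tagln and Acta2 encode contractile proteins of myofibroblasts and of vessel walls. Tagln had 18.6, 78.5, and 39.8 CPM in Mcl1Δhep livers and 14.4, 8.70, and 7.20 in double knockout livers (−2.17, SE 0.49, DESeq2 adjusted p = 0.000652). Acta2 had 10.6, 16.9, and 26.5 CPM against 8.52, 2.63, and 2.98 (−1.93, SE 0.49, DESeq2 adjusted p = 0.00489). In both genes, the library DKO replicate 1 was the highest of its group and close to Mcl1Δhep replicate 1. Acta2 was highest in Mcl1Δhep replicate 3, the library with muscle and pancreas transcripts, and their part in its value was not tested. Sparc, a collagen-binding matrix protein, had 165, 214, and 229 CPM against 139, 106, and 104 (−0.80, SE 0.18, DESeq2 adjusted p = 0.00544), and Timp1, an inhibitor of metalloproteinases, had 1.84, 8.47, and 1.71 against 1.14, 0.414, and 0.438 (−2.52, SE 0.72, DESeq2 adjusted p = 0.0139). Col1a1, the main chain of fibrillar collagen, overlapped because the library DKO replicate 1 had 56.0 CPM, inside the Mcl1Δhep range of 44.0 to 72.7 (−0.80, SE 0.41).

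Among the lists, replication-dependent histone genes had the most members lower at an unadjusted p under 0.05. Of 58 tested histone genes, 53 had a negative log2 fold change (median −0.88), 47 were lower and 1 (H4c17, at most 0.682 CPM) higher at an unadjusted p under 0.05, and DESeq2 called 35, all lower. For 41 genes, the groups did not overlap. H1f3, a linker histone, had 26.3, 87.6, and 56.1 CPM in Mcl1Δhep livers and 18.5, 21.0, and 9.52 in double knockout livers (−1.79, SE 0.40, DESeq2 adjusted p = 0.00147), and H3c7, a core histone, had 11.2, 22.5, and 16.3 against 8.22, 7.33, and 4.87 (−1.29, SE 0.27, DESeq2 adjusted p = 0.00179). These genes are short, with a median exon length of 619 bases, and near-identical to each other, and their transcripts lack a poly(A) tail. With the length offset, the median was −0.66, 37 genes were lower at an unadjusted p under 0.05, and DESeq2 called 12 instead of 35. Histone genes took 0.0614, 0.120, and 0.101% of the counts of the Mcl1Δhep libraries and 0.0512, 0.0534, and 0.0364% of those of the double knockout. The part of the length pattern in these shares was not tested. The 44 genes of S phase had a median of 0.05 (1 higher, 2 lower), and the 42 genes of G2 and mitosis had a median of 0.10, with 0 past an unadjusted p of 0.05 in either direction and 0 called by DESeq2. These medians turned with single libraries. That of G2 and mitosis was −0.54 with 6 lower without the library DKO replicate 1, −0.17 without Mcl1Δhep replicate 3, and 0.48 without Mcl1Δhep replicate 1. That of S phase was −0.32 without the library DKO replicate 2 and 0.29 without replicate 3. Mki67, the proliferation antigen, had 57.7, 20.0, and 7.49 CPM against 68.0, 33.9, and 18.9, so livers of 1 genotype differed more than the genotypes (0.50, SE 0.60). The WT mean was 3.88 CPM. Top2a, the topoisomerase of mitotic chromosomes, overlapped too (−0.09, SE 0.40).

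Ribosomal protein and respiratory chain genes, which are short, were lower by small amounts that moved with the length offset. The 84 cytosolic ribosomal protein genes had a median of −0.36 with 28 lower and 1 higher at an unadjusted p under 0.05, and a median of −0.23 with 10 lower and 2 higher with the offset. Without Mcl1Δhep replicate 2, 2 were lower and 2 higher (median −0.15), and 10 were lower without Mcl1Δhep replicate 3 or without the library DKO replicate 1. For 0 of them did all double knockout libraries lie below all Mcl1Δhep libraries, because Mcl1Δhep replicate 1 stood among the double knockout. Rps14, a protein of the small subunit, had 150 CPM in Mcl1Δhep replicate 1, 469 and 391 in replicates 2 and 3, and 173, 154, and 176 in the double knockout. The 92 nuclear genes of the respiratory chain had a median of −0.30 (32 lower, 2 higher), which was −0.21 with 23 lower and 3 higher after the offset. Without Mcl1Δhep replicates 2 and 3 in turn, 9 and 11 were lower. Ndufb7, a subunit of complex I, had 62.0, 114, and 97.0 CPM against 54.4, 52.9, and 58.0 (−0.72, SE 0.18, DESeq2 adjusted p = 0.019). Sdha, a subunit of complex II with a longer transcript, was higher, with 433, 270, and 323 CPM against 475, 493, and 546 (0.56, SE 0.17, DESeq2 adjusted p = 0.0342).

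Among the lists, sterol synthesis and lipogenesis had the most members higher at an unadjusted p under 0.05, and its median was second to that of the male-biased genes, which are given with sex at the end of the lists. All 42 tested genes had a positive log2 fold change (median 0.64), 25 were higher at an unadjusted p under 0.05, and DESeq2 called 7. The median was 0.67 with the length offset (25 higher), 0.67 without Mcl1Δhep replicate 1, 0.57 without Mcl1Δhep replicate 2 (11 higher), and 0.87 and 0.45 without the libraries DKO replicates 1 and 2. Hmgcs1 (ENSMUSG00000093930, chromosome 13, 120151915 to 120170470), a synthase of the mevalonate pathway, had 322, 213, and 437 CPM in Mcl1Δhep livers and 589, 1080.01, and 607 in double knockout livers. The groups did not overlap, and the double knockout mean of 759 ± 278 (SD, n = 3) was 2.34 times that of Mcl1Δhep livers and near the WT mean of 623 (log2 fold change 1.23, SE 0.33, edgeR adjusted p = 0.12, DESeq2 adjusted p = 0.011). Hsd17b7, which reduces a ketosterol intermediate of cholesterol, had 57.1, 42.2, and 70.6 CPM against 79.7, 134, and 146 (1.08, SE 0.23, DESeq2 adjusted p = 0.00309). Gpam, the first enzyme of triglyceride synthesis, had 302, 154, and 199 CPM against 425, 578, and 334 (1.03, SE 0.25, DESeq2 adjusted p = 0.0069). Lss, which closes the sterol rings, had 53.6, 51.4, and 76.8 CPM against 81.6, 188, and 114 (1.08, SE 0.31, DESeq2 adjusted p = 0.0251).

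The regulators varied more. Srebf1, the transcription factor of lipogenesis, had 302, 159, and 247 CPM in Mcl1Δhep livers and 228, 486, and 368 in double knockout livers (0.61, SE 0.28), and Srebf2, that of sterol synthesis, had a log2 fold change of 0.35 (SE 0.18). Fasn, the fatty acid synthase, had 760, 456, and 582 CPM against 710, 1909, and 2007 (1.36, SE 0.42, DESeq2 adjusted p = 0.0207), so the library DKO replicate 1 stayed with the Mcl1Δhep livers in Fasn and Srebf1. Elovl3 belongs to this list and is male-biased, and its 240 CPM in the library with Y-linked expression set its difference (0.248, 0.0918, and 1.93 CPM in Mcl1Δhep livers, 1.63 and 7.25 in the other double knockout livers).

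Sterol-regulated promoters can hold the sterol regulatory element, to which SREBP proteins bind. The motif TCACNCCAC was searched on both strands in the 250 bases before each gene start of RefSeq (GRCm38.p6). It was present for 331 of 27025 genes (1.22%) and for 2 of the 30 list members with a promoter sequence, Hmgcs1 and Mlxipl. The stretch of the Hmgcs1 promoter around it (chr13:119690154-119690282, plus strand) is shown with the motif in capitals, because Hmgcs1 is the list member among the 15 genes named for the largest positive log2 fold change. The motif begins 137 bases before the start, and this match is a description of the sequence, not of binding.
Hmgcs1: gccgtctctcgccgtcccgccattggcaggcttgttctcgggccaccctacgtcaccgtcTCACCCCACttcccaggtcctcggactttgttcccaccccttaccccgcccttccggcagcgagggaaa

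Genes of pericentral hepatocytes, the zone around the central vein, were also higher. All 24 had a positive log2 fold change (median 0.56, and 0.60 with the length offset), 10 were higher at an unadjusted p under 0.05, and DESeq2 called 2. Without Mcl1Δhep replicate 2, the median was 0.32 with 2 higher, and without Mcl1Δhep replicate 3 it was 1.07 with 19 higher, since that library stood with the double knockout in several of these genes. Cldn2, a tight junction protein, had 64.3, 38.9, and 62.0 CPM in Mcl1Δhep livers and 90.0, 103, and 101 in double knockout livers (0.83, SE 0.21, DESeq2 adjusted p = 0.0147). Lgr5, the receptor for R-spondins, had 2.63, 2.88, and 3.07 CPM against 4.28, 6.63, and 5.64 (0.94, SE 0.27, DESeq2 adjusted p = 0.0323). Both were separate between the groups. Cyp2e1, the ethanol-metabolizing cytochrome P450, had 1737, 1088, and 3767 CPM against 2765, 3968, and 6516, and Mcl1Δhep replicate 3 lay inside the double knockout range (1.01, SE 0.42, DESeq2 adjusted p = 0.0908). Glul, glutamine synthetase, overlapped likewise (0.72, SE 0.39). Periportal and urea cycle genes had a median of −0.30 (−0.20 without Mcl1Δhep replicate 2), with 17 negative and 10 positive values. At an unadjusted p under 0.05, 4 of 27 were lower and 0 higher, against 10.6% and 10.5% of all genes. Without Mcl1Δhep replicate 2, 2 were lower. Asl, argininosuccinate lyase, had 412, 548, and 477 CPM against 318, 353, and 239 (−0.66, SE 0.17, DESeq2 adjusted p = 0.015), and Sds, serine dehydratase, had 212, 531, and 196 against 132, 128, and 51.1 (−1.59, SE 0.45, DESeq2 adjusted p = 0.011).

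Of 29 genes of bile acid synthesis and transport, 8 were higher (among them Cyp7b1 and Slco1a1, which are male-biased) and 1 lower at an unadjusted p under 0.05 (13 higher and 0 lower with the length offset, 3 and 0 without Mcl1Δhep replicate 2), with a median of 0.32. Abcc2, the canalicular export pump for conjugated bilirubin, had 375, 231, and 250 CPM in Mcl1Δhep livers and 485, 465, and 536 in double knockout livers (0.79, SE 0.19, DESeq2 adjusted p = 0.00797). Abcb11, the bile salt export pump, had 902, 600.01, and 611 CPM against 1028, 1163, and 972 (0.58, SE 0.20, DESeq2 adjusted p = 0.0571). Both exporters were higher without overlap, whereas Cyp7a1, the rate-limiting enzyme of bile acid synthesis, overlapped (0.02, SE 0.62). Among 34 hepatocyte transcription factors and secreted proteins, 28 had a positive log2 fold change (median 0.15), 5 were higher and 0 lower (1 and 0 without Mcl1Δhep replicate 2), and DESeq2 called 2. Nr5a2, the nuclear receptor LRH-1, had 53, 48.5, and 47.6 CPM against 67.0, 69.2, and 68.6 (0.46, SE 0.13, DESeq2 adjusted p = 0.0327). Apob, the scaffold of very low-density lipoprotein, is a long gene with 8865, 3904, and 3249 CPM against 12422, 9653, and 11970.0 (1.09, SE 0.37, and 0.94 with the length offset, DESeq2 adjusted p = 0.0213).

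The 46 genes of P450 families 2 and 3 (median 0.35, 6 higher, 0 lower), the 44 genes of PPARα-driven fatty acid oxidation (median 0.32, 7 higher, 0 lower), and the 26 circadian clock genes (median 0.23, 2 higher, 0 lower) had positive medians, and DESeq2 called 0, 1, and 1 of them. The share of clock genes with such a p was below that of all genes, and its median was 0.06 without Mcl1Δhep replicate 1 or without the library DKO replicate 3, with 8 higher without the library DKO replicate 1 and 6 higher without Mcl1Δhep replicate 3. The direction of the fatty acid oxidation list rested on 1 library, since its median was −0.09 without the library DKO replicate 3, and 1, 4, and 11 genes were higher without Mcl1Δhep replicates 2 and 3 and the library DKO replicate 1 in turn. Of the P450 genes, 2 were higher without Mcl1Δhep replicate 2 and 14 without replicate 3. The called gene of the fatty acid oxidation list was Mgll, the lipase that splits monoacylglycerol, with 97.4, 65.0, and 103 CPM against 108, 146, and 429 (1.36, SE 0.42, DESeq2 adjusted p = 0.0251). Nr1d1, the clock repressor REV-ERBα, had 14.4, 8.29, and 16.5 CPM against 24.7, 26.1, and 22.5 (0.90, SE 0.23, DESeq2 adjusted p = 0.016).

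Other genes among the 15 with the largest positive log2 fold change, by the rule given under the processing, were Hhip, a decoy receptor for hedgehog ligands, and Mug1, a plasma protease inhibitor. Hhip had 2.75, 1.16, and 2.66 CPM in Mcl1Δhep livers and 4.38, 6.48, and 6.21 in double knockout livers (1.35, SE 0.29, DESeq2 adjusted p = 0.00175). Mug1 had 1607, 938, and 1209 CPM against 3076, 1912, and 4186 (1.29, SE 0.40, DESeq2 adjusted p = 0.0195). In both genes, the groups were separate, which the rule requires. Cmah, the hydroxylase of sialic acid (1.40), Tmie (1.46), Fras1 (1.5), Mgam (1.24), Crybg3 (1.25), and the transcription factor Rfx4 (1.63) were higher and called by DESeq2. Their lack of overlap is again required by the rule, as is a low edgeR p on the same counts. The 6 values were 1.26, 1.51, 1.25, 1.11, 1.06, and 1.67 with the length offset. With it, the DESeq2 adjusted p was 0.0533 for Fras1 and under 0.05 for the others. In WT livers, Mug1 had 2639 CPM in replicate 1, without Y-linked expression, and 6897 and 6087 in replicates 2 and 3, with it. Cmah had 117 against 272 and 208. Without the library DKO replicate 1, the log2 fold changes of Mug1 and Cmah were 1.29 and 1.39. The part of sex in these 2 genes was not tested.

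Acute phase genes were mixed, with 6 of 32 lower, 0 higher, and a median of −0.09 (0.02 without Mcl1Δhep replicate 2), and DESeq2 called 3 of them. The metallothioneins Mt2 and Mt1, zinc-binding proteins with similar sequences, had 23.8, 106, and 24.2 CPM and 124, 343, and 104 CPM in Mcl1Δhep livers. Their double knockout values were 6.08, 4.73, and 5.25 (−3.24, SE 0.90, DESeq2 adjusted p = 0.0252) and 23.6, 34.4, and 34.7 (−2.62, SE 0.81, DESeq2 adjusted p = 0.0561). Mt2 was highest in Mcl1Δhep replicate 2, and without that library its log2 fold change was −2.15. Il1rn, the interleukin-1 receptor antagonist, had 8.73, 10.6, and 9.74 CPM against 5.21, 5.04, and 4.93 (−0.93, SE 0.28, DESeq2 adjusted p = 0.0235). Hamp, which encodes hepcidin, had 441, 574, and 547 CPM against 284, 391, and 314 (−0.66, SE 0.19, DESeq2 adjusted p = 0.0297; −0.40 with the length offset). Wfdc3 was also among the 15 genes with the largest negative log2 fold change (−3.26), with 7.92 CPM in Mcl1Δhep replicate 2 and at most 1.08 in the others.

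The library DKO replicate 1 was the one with Y-linked expression among the 6, and male-biased liver genes had a median of 2.12 (13 of 29 higher) with it and 0.90 (3 higher) without it. This count was 6 without Mcl1Δhep replicate 2. Hsd3b5, a male-biased steroid dehydrogenase, had 136, 1.24, and 17.3 CPM in double knockout livers and at most 0.791 in Mcl1Δhep livers (6.84, and 4.39 without that library). Cyp7b1, an oxysterol hydroxylase, had 172, 18.9, and 44.4 CPM against 7.86, 6.30, and 14.6 (3.02, and 1.72 without it). Mup15, a major urinary protein with near-identical copies, had 1.87, 1.02, and 61.5 CPM against 0.0207, 0.122, and 1.01, so a library without Y-linked expression carried its difference. The 29 female-biased genes had a median of 0.17 (0.75 without the library DKO replicate 1, −0.28 without replicate 3) with 0 past an unadjusted p of 0.05. Of the 15 genes with the largest negative log2 fold change, Tff2, Cmya5, Ryr1, Casq2, Nrap, Flnc, Myo18b, and Eno3 had their high level in Mcl1Δhep replicate 3, the library with muscle and pancreas transcripts. Cmya5, for example, had 30.1 CPM there and 0.0821 to 0.459 in the other 5 libraries. Without that library, Nrap and Eno3 had log2 fold changes of −0.14 and −0.31. Tff2, Casq2, and Cmya5 kept −2.47, −1.53, and −1.27, and Ryr1, Myo18b, and Flnc had −1.06, −0.89, and −0.86.

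Whether the effect of Sting1 differed between Mcl1-deleted and Mcl1-intact livers was tested as an interaction over all 12 libraries. By edgeR, 0 genes passed an adjusted p of 0.05 and 2223 had an unadjusted p under 0.05 (14.8%), while DESeq2 called 172. Of 29 monocyte and lipid-associated macrophage genes, 12 had such a p, and their median log2 fold change for Sting1 loss in intact livers was −0.05. Of 58 histone genes, 42 had such a p (median in intact livers 0.24), and of 42 sterol and lipogenesis genes, 12 did (0.02). Both comparisons enter the interaction, so these counts repeat the values above in part. For single genes, the interaction was −1.96 for Lgals3 (edgeR adjusted p = 0.195) and 1.58 for Cd163 (edgeR adjusted p = 0.214). Of the 29 male-biased genes, 28 had an unadjusted p under 0.05, beside Y-linked expression in 2 of 3 WT libraries, 0 of 3 Sting1-/- libraries, 0 of 3 Mcl1Δhep libraries, and 1 of 3 double knockout libraries. Sex and genotype were thus unequally distributed and cannot be told apart for these genes.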

How the data were processed

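Total RNA of 12 mouse livers (3 each of WT, Sting1-/-, Mcl1Δhep, and Mcl1Δhep Sting1-/-) was sequenced on an Illumina instrument. The deposited values are raw counts per Ensembl gene and library, which the authors made with STAR and featureCounts on GRCm39, per the labels. Versions, annotation, and strand setting are not given in the sources used here. Symbols, positions, and exon lengths came from GENCODE (GRCm39) for 39533 of 40551 genes.

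Genes were kept with filterByExpr by genotype (15070), scaled by TMM, and tested with edgeR 4.0.16 (quasi-likelihood F test, prior count 2, Benjamini-Hochberg adjustment over all tested genes, threshold 0.05) in 1 fit over 12 libraries. The contrast was Mcl1Δhep Sting1-/- minus Mcl1Δhep, and the interaction was the same difference minus that between Sting1-/- and WT livers. DESeq2 1.42.0, limma 3.58.1 (voom with quality weights), other scalings and filters, leaving out single libraries, covariates, and exon-length offsets (lowess span 0.3) were alternatives, the last chosen after the data were seen. Fits ran in R 4.3.3 and were tested on simulated data. Tables were made in Python 3.11.15 with pandas 2.3.3 and numpy 2.4.6, and plots with matplotlib 3.10.9.

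Totals per library were 28826367 to 45266387 counts. Genes with few counts are the least precise. No 2 libraries of a genotype were duplicates (chi-square per degree of freedom 40.1 to 290). Same-numbered Mcl1Δhep and double knockout libraries did not deviate together (correlations −0.031, −0.073, and 0.003), so numbers were not taken as pairs.

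The text names Sting1, Mcl1, and Cgas, the 15 with the largest positive and the 15 with the largest negative log2 fold change among genes with a mean of at least 1 CPM, an unadjusted p under 0.01, no overlap between groups, and no clone name, Y linkage, Xist, or small structured RNA (at most 3 histone and 3 muscle genes each way), and in each list up to 4 members with the lowest p plus members named for their role. The comparison and the 44 gene lists were chosen with earlier results of these data known. Some genes that meet this rule are not reported here.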

Additional observations from a re-analysis of the deposited data

How the results depend on the processing

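Which genes count as different depended on the test and on single libraries. For the double knockout against Mcl1Δhep, edgeR called 0 genes, and it also called 0 with DESeq2-type or upper-quartile scaling, other filters on low counts, the 6 compared libraries alone, robust or legacy estimation, a threshold of 0.1, the exon-length offset, and the replicate block (0 with the replicate block, where 3050 genes had an unadjusted p under 0.05). DESeq2 called 671, DESeq2 with the length offset 515, limma voom 1694, and edgeR with Y-linked expression as a covariate 2. Leaving out 1 library gave 0 to 3184 calls in edgeR, with 3184 without Mcl1Δhep replicate 1, 2 without replicate 2, and 6 without replicate 3. With the length offset these were 2097, 2, and 7. Limma voom gave 2308, 1, and 1, and DESeq2 gave 3690, 88, and 554, and 550 without the library DKO replicate 1. For the interaction (0 in edgeR and 0 with the replicate block), DESeq2 called 172, DESeq2 with the length offset 143, and the Y-linked covariate 1. Leaving out 1 library gave 0 to 1679 calls, with 1679 without Mcl1Δhep replicate 1 (621 with the length offset), 95 without WT replicate 1, and 1 without Sting1-/- replicate 3. DESeq2 gave 2561, 73, and 292 without Mcl1Δhep replicates 1, 2, and 3, and 111 without the library DKO replicate 1. The cause of these differences was not tested. None of the 33 named genes changed direction under any alternative run. All of them except Sting1, Mcl1, and Cgas were chosen for separate groups and a low p in these data. That choice made a change of direction unlikely, so this count does not measure how stable the results are. Among lists with a median beyond 0.3 in size, the sign changed for fatty acid oxidation without the library DKO replicate 3 (−0.089), for adipocyte and mesothelium (1.36) and pancreas and gut (0.155) without Mcl1Δhep replicate 3, for skeletal muscle without that library and with the length offset (0.023), for adipocyte and mesothelium (0.024) and small structured RNAs (0.486) with the structured RNA share as covariate, and for small structured RNAs in limma voom without Mcl1Δhep replicate 2 (0.326).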

Other observations

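Several further lists had a median close to that of all genes. For the 30 endothelial genes, the median log2 fold change was 0.00 (1 higher and 3 lower at an unadjusted p under 0.05), and the 28 p53 targets had 0.01 (2 higher, 2 lower). The 44 genes of integrated and endoplasmic reticulum stress had −0.00 (3 higher, 4 lower), and the 43 genes of NRF2 and glutathione had −0.05 (3 higher, 6 lower). The 21 targets of YAP and TEAD had 0.06 (2 higher, 3 lower). Platelet genes (11 tested, median 0.07) included 2 genes that DESeq2 called lower, Thbs1, a secreted inhibitor of angiogenesis, and Selp, an adhesion molecule of platelets and endothelium. Thbs1 had 28.7, 17.9, and 10.2 CPM in Mcl1Δhep livers and 8.95, 5.56, and 5.69 in double knockout livers (−1.49, DESeq2 adjusted p = 0.00313). Among 27 immediate early genes (median −0.20), Rhob, a small GTPase, had 48.8, 63.6, and 53.9 CPM against 29.4, 24.6, and 34.4 (−0.91, SE 0.15, edgeR adjusted p = 0.116, DESeq2 adjusted p = 0.000131). Other lists lay further away. The 13 adipocyte and mesothelium genes had a median of −0.52 (12 with a negative value, 2 lower at an unadjusted p under 0.05), which was 1.36 without Mcl1Δhep replicate 3. The 4 tested pancreas and gut genes had −2.78, and 0.15 without that library. The 73 small structured RNAs had −0.76 (67 with a negative value, 7 lower at an unadjusted p under 0.05), and −0.15 without Mcl1Δhep replicate 2. All 8 genes of the mitochondrial genome had a positive value (median 0.28), with 0 past an unadjusted p of 0.05 in edgeR.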
